A study of Arabidopsis thaliana with 21 samples.

Results

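In Arabidopsis thaliana plants that all carry aba2, the highest GA20OX1 genotype of the series was set against the lowest. The 3 arrays of aba2/GA20OX1-OE were compared with the 3 arrays of aba2/ga20ox1, chosen by genotype label from 21 arrays in all. The ABA2 protein is an enzyme that helps to make abscisic acid (ABA), and GA20OX1 is a gibberellin 20-oxidase, which helps to make gibberellin (GA). OE commonly stands for overexpression. Both groups share the aba2 mutation, so no plant of this comparison had an intact ABA2 gene, and both genotypes differ in GA20OX1 alone as far as the labels say.

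Further arrays were used beside these: aba2 alone, which has the native GA20OX1 gene, and the pair GA20OX1-OE and ga20ox1, in which ABA2 is intact. ABA2-OE and the wild type Col-0 entered the estimate of spread and give levels for orientation. Each genotype had 3 arrays, all in the Col-0 background. RNA came from the above-ground parts of soil-grown plants at an age of 21 days, labelled as rosette tissue, and was measured on single-channel Affymetrix arrays. The sources used here do not give the promoter behind the OE lines, the alleles or the number of lines, nor whether replicate arrays stand for separate plants or pools. The p-values therefore cover the array-to-array spread alone, some of it possibly technical, and the number of arrays limits the precision of every value.

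GA and ABA often act on growth in opposite directions. GA binds the GID1 receptors, which leads to the breakdown of the DELLA proteins that hold growth back, and GA 20-oxidases catalyse late steps of its synthesis. ABA restrains growth and germination and switches on genes of drought and cold tolerance, and plants that cannot make it wilt easily. By its title the series is about the interplay of ABA and GA in leaf development. Comparing high with low GA20OX1 inside aba2 asks which genes follow GA20OX1 where ABA synthesis is impaired throughout.

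The annotation used here names neither ABA2 nor GA20OX1, so the engineered genes could not be checked by name. The median signal was 149 to 188 on the aba2/GA20OX1-OE arrays and 135 to 147 on the aba2/ga20ox1 arrays, within the 130 to 188 of all 21 arrays. Log2 signals correlated at 0.960 to 0.972 among the aba2/GA20OX1-OE arrays and at 0.974 to 0.979 among the aba2/ga20ox1 arrays. Replicate 3 of aba2/GA20OX1-OE stood apart, with the highest median signal of the series and the highest score on the first principal component (54.8, against 13.6 and 25.1 for the other arrays of its group). The counts of called probe sets without it are given beside the comparisons that use it. Leaf markers had high signals in both groups. The 13 tested genes of nuclear photosynthesis and chlorophyll synthesis summed to a signal of 160600 to 199900 in aba2/GA20OX1-OE and 184500 to 221000 in aba2/ga20ox1, and RCA, the Rubisco activase gene, had a log2 signal of 14.58 ± 0.11 in aba2/GA20OX1-OE and 14.67 ± 0.19 in aba2/ga20ox1 (SD, n = 3 each).

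Between aba2/GA20OX1-OE and aba2/ga20ox1, 3.91% of the tested probe sets differed, and more were higher than lower in aba2/GA20OX1-OE. Limma called 623 of 15922 probe sets at an adjusted p under 0.05, of which 435 were higher (2.73%) and 188 lower (1.18%) in aba2/GA20OX1-OE. The median log2 difference was 1.02 among those that rose and -0.76 among those that fell, and 283 differed by 2-fold or more, 229 upward and 54 downward. Without adjustment, 3351 probe sets had a p under 0.05. The 3 arrays of one group did not overlap with the 3 of the other for 429 of the 435 and 183 of the 188. Over all tested probe sets this held for 24.9%, with 15.9% higher and 8.98% lower in aba2/GA20OX1-OE.

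The balance of rises and falls depends on the scaling. The median log2 difference of all tested probe sets was 0.107, and after quantile normalization, which gives every array the same distribution, it was -0.0125. With that scaling 295 probe sets were higher and 249 lower, so that rises made up 54.2% of the calls and not 69.8%. Without aba2/GA20OX1-OE replicate 3 there were 222 rises and 107 falls. The count of 623 was 309 without aba2/ga20ox1 replicate 3, 364 without aba2/ga20ox1 replicate 1 and 329 without aba2/GA20OX1-OE replicate 3.

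**Figure D1:**
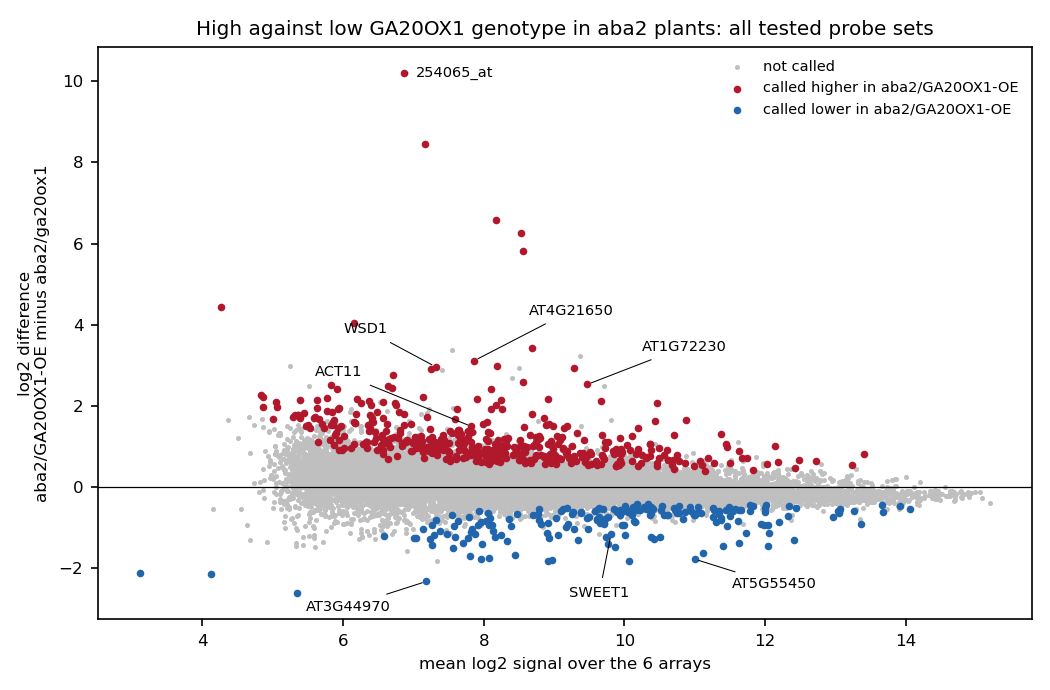
Each point is 1 of 15922 tested probe sets, with the mean log2 signal of the 6 arrays on the x axis and the log2 difference, aba2/GA20OX1-OE minus aba2/ga20ox1, on the y axis. The 435 probe sets called higher (red) reach a difference of 10.2 and the 188 called lower (blue) reach -2.61.

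The annotation assigned 298 of the called probe sets to 1 gene, 197 higher (2.25% of the 8760 tested with 1 gene) and 101 lower (1.15%). Only 62 of these genes have a symbol other than their locus code, and a locus code alone is given without a role. The rise with the largest difference was at a probe set that the annotation does not name, 254065_at. Its log2 signal was 11.92, 12.04 and 11.92 in aba2/GA20OX1-OE and 0.17, 1.37 and 3.74 in aba2/ga20ox1. The aba2 arrays lay between both groups, at 6.74, 6.82 and 6.43. Its means followed the GA20OX1 genotype elsewhere too, at 8.74 in GA20OX1-OE, 4.38 in ga20ox1, 6.09 in ABA2-OE and 6.37 in Col-0. The annotation does not tell whether this probe set measures GA20OX1 itself, so it cannot be read as a response to GA20OX1. The log2 difference was 10.20 (SE 0.63, adjusted p = 2.1e-09). Signals under a log2 of 5.257, the bound of the low-signal filter, carry little information on size, so no fold is given where a group mean lies under it. With a pseudocount of 20.1 added before the logarithm, the difference at 254065_at was 7.31. A second unnamed probe set, 247718_at, had log2 signals of 10.64, 12.46 and 11.11 in aba2/GA20OX1-OE and 4.16, 1.52 and 3.15 in aba2/ga20ox1 (adjusted p = 0.00016). The difference was 8.46, and 6.54 with the pseudocount. This probe set varied widely within other genotypes, at 7.48, 10.75 and 3.34 in GA20OX1-OE and 5.20, 8.24 and 4.43 in aba2.

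Among named genes the rises were led by AT4G21650. Its log2 signal was 9.39, 9.16 and 9.73 in aba2/GA20OX1-OE and 6.17, 6.29 and 6.46 in aba2/ga20ox1, with no overlap. The difference was 3.12 (SE 0.31, adjusted p = 2.8e-06), or 8.68-fold. WSD1, which encodes a wax ester synthase of the cuticle, had 8.53, 8.77 and 9.11 in aba2/GA20OX1-OE and 6.17, 5.47 and 5.85 in aba2/ga20ox1. It was 7.82-fold higher (2.97, SE 0.38, adjusted p = 7.2e-05), and every array of the high GA20OX1 genotype lay above every array of the low one. SP1L5, a member of the SPIRAL1 family of microtubule proteins that steer directional cell growth, had 7.02, 7.05 and 6.56 in aba2/GA20OX1-OE and 3.69, 5.31 and 5.03 in aba2/ga20ox1 (2.20, SE 0.41, adjusted p = 0.0038). Its low group lies under the bound, and the pseudocount gave 1.55.

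The other large rises are known by locus code or rest on fewer arrays. AT1G72230 was 5.79-fold higher, at 10.35, 11.55 and 10.31 in aba2/GA20OX1-OE and 8.32, 8.06 and 8.24 in aba2/ga20ox1 (adjusted p = 2.5e-05). AT5G40630 rose 5.67-fold (2.50, SE 0.35), AT3G25290 rose 4.48-fold (2.16, SE 0.30) and AT3G14395 rose 4.29-fold (2.1, SE 0.44). AT3G59845 rose 6.79-fold (2.76, SE 0.61, adjusted p = 0.011), and without aba2/ga20ox1 replicate 1 it was not called (2.39, adjusted p = 0.064). The aba2/ga20ox1 means of AT5G40630 (5.39) and AT3G59845 (5.33) lay just above the bound, so their folds are uncertain. With the pseudocount their differences were 2.06 and 2.25. AT3G25130, AT4G11210 and AT2G20250 rose by 2.42, 2.17 and 2.22, with means under the bound in aba2/ga20ox1. Of these, AT2G20250 was not called without aba2/GA20OX1-OE replicate 3 (1.95, adjusted p = 0.06) or aba2/ga20ox1 replicate 1 (1.47, adjusted p = 0.051).

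The aba2 mean lay outside both groups for 3 of the 12 largest rises. In AT5G40630 and AT3G25290 it was slightly below, with 5.39 in aba2/ga20ox1 and 5.35 in aba2 for the one and 6.82 in aba2/ga20ox1 and 6.68 in aba2 for the other. QQS, an orphan gene known for its effect on starch content, had 10.20, 9.54 and 9.32 in aba2/GA20OX1-OE and 6.74, 5.83 and 7.53 in aba2/ga20ox1 (2.98, SE 0.74, adjusted p = 0.024). The mean of QQS in aba2 was 10.79, above both groups. The call ended without any 1 of the aba2/GA20OX1-OE arrays and without aba2/ga20ox1 replicates 1 or 2, where the difference was 2.55 to 3.16 and the adjusted p 0.051 to 0.09.

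The falls spanned a smaller range than the rises. Differences of -2.61 (SE 0.65, adjusted p = 0.025) and -2.14 (SE 0.60, adjusted p = 0.047) stood at the unnamed probe sets 259320_at and 260869_at, whose aba2/GA20OX1-OE means lay under the bound. Neither was called without aba2/GA20OX1-OE replicates 1 or 2 or aba2/ga20ox1 replicates 2 or 3 (-1.26 to -2.58, adjusted p of 0.059 to 0.19), nor 260869_at without aba2/ga20ox1 replicate 1 (-2.17). AT3G44970 fell most among genes with a name, with 6.08, 5.59 and 6.40 in aba2/GA20OX1-OE and 8.27, 8.41 and 8.35 in aba2/ga20ox1. The difference was -2.32 (SE 0.28, adjusted p = 3.3e-05), 4.99-fold, without overlap. AT5G55450 had 10.03, 9.54 and 10.76 in aba2/GA20OX1-OE and 11.46, 12.05 and 12.13 in aba2/ga20ox1, a 3.41-fold fall (-1.77, SE 0.24, adjusted p = 0.00012). GIS, a zinc finger transcription factor gene of the GA pathway that promotes trichome formation, was 2.27-fold lower, at 6.94, 6.34 and 6.81 in aba2/GA20OX1-OE and 8.05, 7.82 and 7.78 in aba2/ga20ox1 (adjusted p = 0.0028). MSRB9, which encodes a methionine sulfoxide reductase, was 2.36-fold lower (-1.24, SE 0.24, adjusted p = 0.0052). AT4G11290 fell 2.25-fold (-1.17, SE 0.22) and AT2G43590 fell 2.65-fold (-1.40, SE 0.18).

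PYK10 encodes a beta-glucosidase of endoplasmic reticulum bodies that is abundant in roots, and it served as a root marker here. It had 8.76, 9.45 and 7.83 in aba2/GA20OX1-OE and 9.79, 10.23 and 9.94 in aba2/ga20ox1, a 2.47-fold fall (-1.31, SE 0.25, adjusted p = 0.0049). In a fit of only the groups compared it was not called (adjusted p = 0.056). The summed signal of the 3 annotated root markers was 317 to 727 in aba2/GA20OX1-OE and 973 to 1227 in aba2/ga20ox1, with none at 0. PYK10 itself made up most of this sum, which is therefore no separate measure. The part of root tissue in the other falls was not tested. The other root marker tested, the root hair expansin gene EXPA18, had a mean of 5.63 ± 1.06 in aba2/GA20OX1-OE and 5.18 ± 1.09 in aba2/ga20ox1 (adjusted p = 0.68). In bulk tissue, fewer cells of a type and less RNA per cell cannot be told apart.

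The remaining large falls were less stable. PDF1.2b, a plant defensin gene of the jasmonate and ethylene response, had 10.95, 9.14 and 10.84 in aba2/GA20OX1-OE and 11.74, 11.78 and 12.24 in aba2/ga20ox1. Its fall (-1.61, SE 0.45, adjusted p = 0.047) ended without any 1 of the arrays other than aba2/GA20OX1-OE replicate 1, with differences of -1.03 to -1.88 and adjusted p of 0.052 to 0.18, and its probe set can also bind transcripts of related genes. Without aba2/ga20ox1 replicate 3, AT5G43910 (-1.09), AT3G23550 (-1.03), AT3G18250 (-1.05) and AT1G52770 (-1.32) were not called either, at adjusted p of 0.058 to 0.089. With all arrays they fell by 1.23, 1.22, 1.19 and 1.33 on the log2 scale (adjusted p = 0.011, 0.0076, 0.014 and 0.015). Without aba2/GA20OX1-OE replicate 1, AT5G43910 stood at -1.12, AT3G18250 at -0.92 and AT1G52770 at -1.13, with adjusted p of 0.05 to 0.08, and AT1G52770 was also not called without aba2/ga20ox1 replicate 2 (-1.27).

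**Figure D2:**
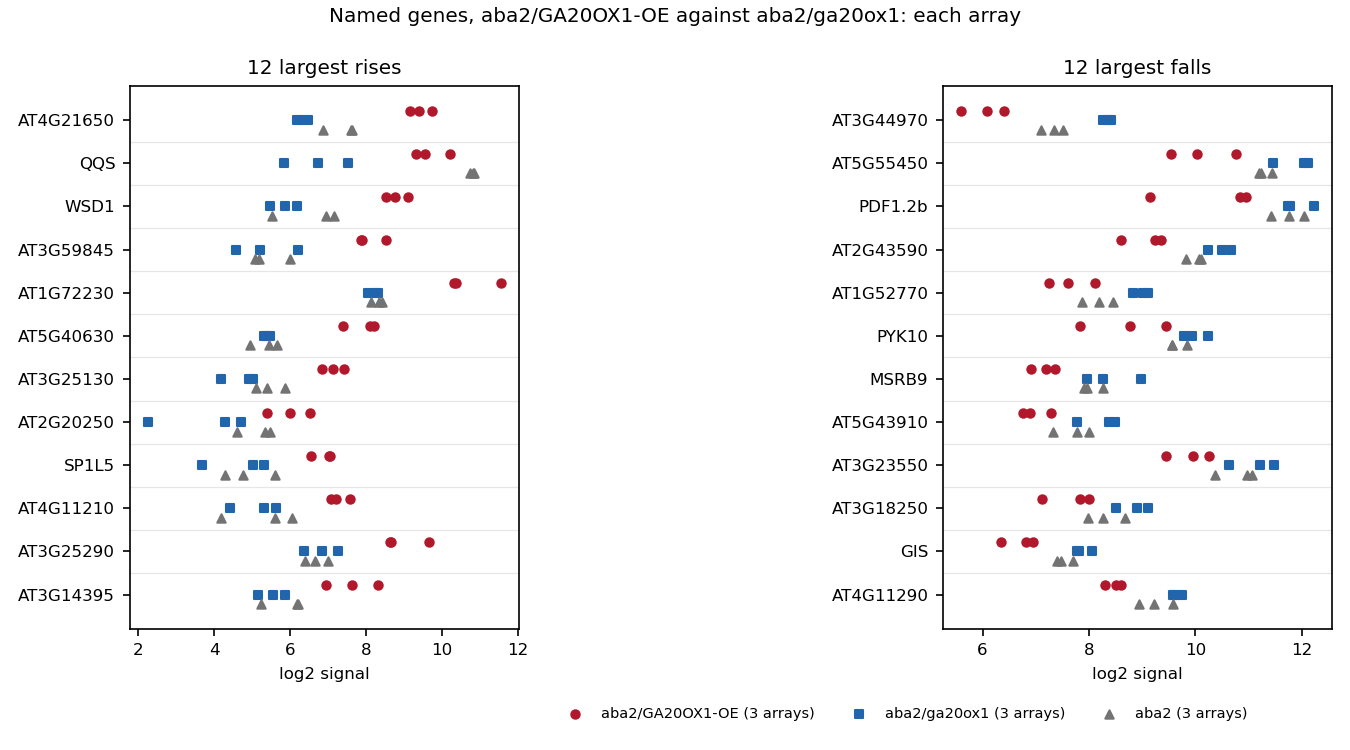
Log2 signal on each array for the 12 largest rises (left) and 12 largest falls (right) among named genes, in aba2/GA20OX1-OE (red circles), aba2/ga20ox1 (blue squares) and aba2 (grey triangles). The red and blue points do not overlap for any of the 24 genes, as the choice of genes required. The aba2 mean lies between both groups for 9 of 12 rises and 12 of 12 falls, which choosing large differences favours. It does so for 90.6% of all called rises and 96.8% of all called falls. Among all tested probe sets the shares are 53.6% with a difference above 0 and 47.1% with a difference below 0.

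Cell wall genes were examined because both hormones act on growth. The unadjusted counts of this and later lists stand against 3351 of 15922 for all tested probe sets, both directions together. Of 12 tested expansins and expansin-like genes, which loosen cell walls, 1 was called higher and 0 lower, with a median difference of -0.01 (0.03 after quantile normalization; 1 higher and 0 lower at an unadjusted p under 0.05). This was EXLA2, at 6.75, 8.39 and 7.10 in aba2/GA20OX1-OE and 5.73, 4.67 and 5.78 in aba2/ga20ox1 (2.02, SE 0.50, adjusted p = 0.025). It was not called without aba2/GA20OX1-OE replicate 2 (1.53), without aba2/ga20ox1 replicate 2 (1.66) or after quantile normalization (1.74), with adjusted p of 0.06 to 0.098. The expansin genes EXPA8, EXPA15 and EXPA4 had differences of -0.04, 0.01 and -0.06. Of 17 tested genes of cellulose and glucan synthesis and endoglucanases, 15 had a difference above 0 and 2 were called, both higher (median 0.39; 8 higher and 0 lower at an unadjusted p under 0.05). Of all tested probe sets 61.4% had a difference above 0, and after quantile normalization the median of the list was 0.23 with 1 call. These were GH9B5, an endoglucanase family gene (1.77, SE 0.42, adjusted p = 0.018), and CSLA01, a cellulose synthase-like gene (1.55, SE 0.43, adjusted p = 0.046), both lost under several alternatives. GH9B5 was not called without aba2/GA20OX1-OE replicates 2 or 3 or aba2/ga20ox1 replicates 1 or 3 (1.47 to 1.79, adjusted p up to 0.092), nor CSLA01 without aba2/GA20OX1-OE replicates 1 or 2 or aba2/ga20ox1 replicates 1 or 2 (1.12 to 1.55, adjusted p up to 0.14).

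XTH16 encodes a xyloglucan endotransglucosylase that cuts and rejoins wall polymers. It was the only 1 of 5 tested xyloglucan genes called, at 9.14, 9.75 and 9.91 in aba2/GA20OX1-OE and 8.51, 9.03 and 8.45 in aba2/ga20ox1 (0.94, SE 0.23, adjusted p = 0.024). Without aba2/GA20OX1-OE replicates 2 or 3 or aba2/ga20ox1 replicates 1 or 3 it was not called (0.78 to 0.86, adjusted p up to 0.13). The median of this list was 0.18, and -0.10 after quantile normalization.

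Members of the TRICHOME BIREFRINGENCE-LIKE (TBL) family, which includes enzymes that add acetyl groups to wall polysaccharides, were chosen after their values were seen. Of 18 tested, 4 rose and 0 fell (median 0.47; 7 higher and 0 lower at an unadjusted p under 0.05). After quantile normalization the median was 0.33 with 2 calls, and without aba2/GA20OX1-OE replicate 3 there were also 2. TBL36 had 9.32, 10.76 and 9.91 in aba2/GA20OX1-OE and 8.76, 8.83 and 8.94 in aba2/ga20ox1, 2.22-fold higher (adjusted p = 0.0064; 0.057 in a fit of only the groups compared). TBL15 had 5.88, 5.77 and 6.49 in aba2/GA20OX1-OE and 2.63, 4.80 and 4.77 in aba2/ga20ox1 (1.98, SE 0.40, adjusted p = 0.0065). Its low group lies under the bound, the pseudocount gave 1.15, and a fit of only the groups compared gave no call (adjusted p = 0.11). The calls of TBL37 (0.79, SE 0.20) and TBL39 (0.63, SE 0.17) ended after quantile normalization (0.60 and 0.57, adjusted p = 0.078 and 0.075) and without aba2/GA20OX1-OE replicates 2 or 3 or aba2/ga20ox1 replicates 1 or 2 (0.51 to 0.78, adjusted p of 0.061 to 0.13). TBL39 was also not called without aba2/GA20OX1-OE replicate 1 (0.66).

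The cytoskeleton list held 2 stable rises. These were the only calls among the 13 tested members of the list drawn for tubulins and actins. The list median was -0.04, or 0.07 after quantile normalization. At an unadjusted p under 0.05, 3 were higher and 1 lower. The list also took in genes with MAP in their symbol, which are neither tubulin nor actin genes. The lower member, MAP1D (-0.37), was among them. The median and counts therefore do not describe tubulin and actin genes alone. TUB1, a beta-tubulin gene, had 8.81, 8.97 and 9.49 in aba2/GA20OX1-OE and 7.89, 8.44 and 7.87 in aba2/ga20ox1, 2.03-fold higher (adjusted p = 0.005). ACT11, an actin gene best known from reproductive organs, had 8.12, 8.75 and 8.85 in aba2/GA20OX1-OE and 7.11, 6.88 and 7.24 in aba2/ga20ox1. It was 2.82-fold higher (1.5, SE 0.19, adjusted p = 6.5e-05).

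The summed signal of 7 annotated flower, pollen and meristem markers was 1235 to 1909 in aba2/GA20OX1-OE and 318 to 545 in aba2/ga20ox1, and none was at 0. ATA27, an anther-associated beta-glucosidase gene, contributed most to that sum in aba2/GA20OX1-OE, with a log2 signal of 9.96 ± 0.39 in aba2/GA20OX1-OE and 7.03 ± 0.79 in aba2/ga20ox1 (2.94, SE 1.03, adjusted p = 0.11). CLV3, which marks the shoot meristem, had means of 2.80 in aba2/GA20OX1-OE and 1.68 in aba2/ga20ox1, and SPL, which marks developing anthers and ovules, had 3.50 in aba2/GA20OX1-OE and 3.0 in aba2/ga20ox1, all under the low-signal bound. FD, a flowering time gene of the shoot apex, had 6.52 in aba2/GA20OX1-OE and 5.92 in aba2/ga20ox1. Whether flower tissue has a part in the rises was not tested. Of 12 tested flowering time and MADS box genes, AGL42, which delays senescence and shedding of flower parts, was called higher (2.07, SE 0.42, adjusted p = 0.0067). It had 7.38, 7.14 and 7.38 in aba2/GA20OX1-OE and 5.74, 4.38 and 5.57 in aba2/ga20ox1, and the group with low GA20OX1 lay around the bound.

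**Figure D3:**
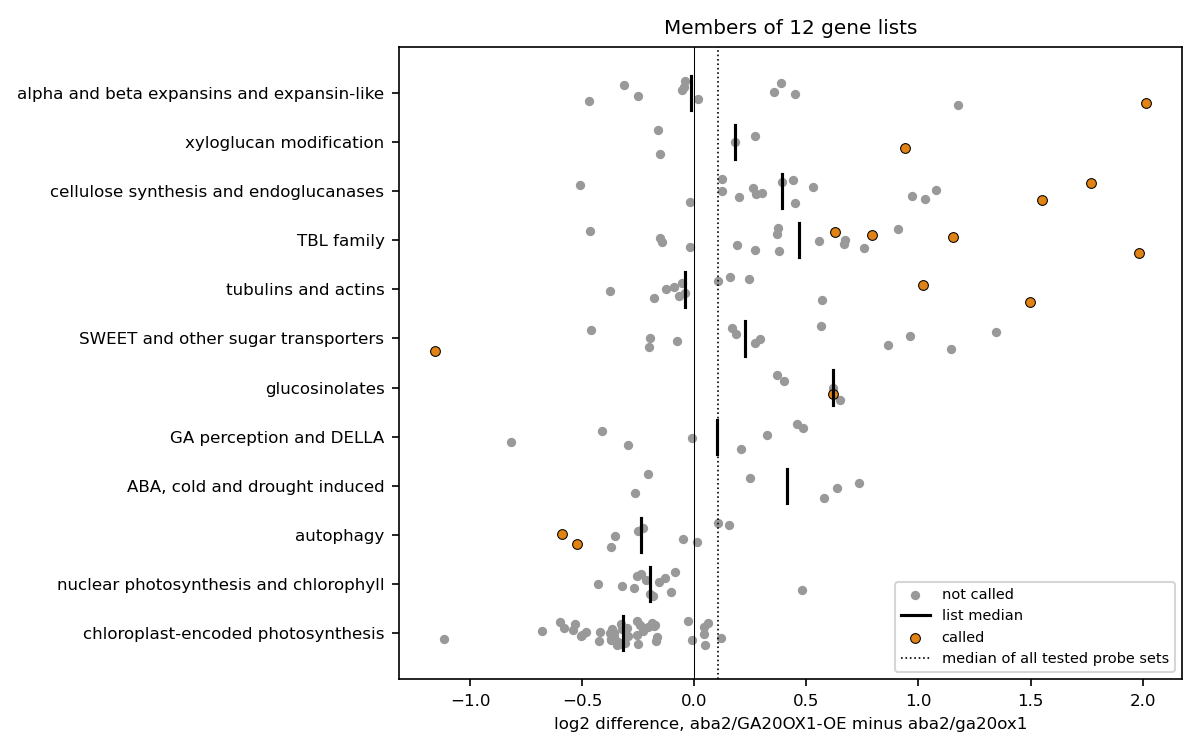
Log2 differences, aba2/GA20OX1-OE minus aba2/ga20ox1, of the tested members of 12 gene lists, 1 point a gene, with called genes in orange and the list median as a bar. Called genes range from -1.16 (SWEET1) to 2.02 (EXLA2), and the list medians lie between -0.32 and 0.62, on both sides of the median of all tested probe sets (dotted line, 0.107).

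None of the 8 tested genes of the GA perception list was called by limma (median 0.10, or -0.06 after quantile normalization). At an unadjusted p under 0.05, 1 was higher and 1 lower. The list was drawn by symbol and also took in ATSLY1 (0.21), which is not a GA perception gene and differs from SLY1 (-0.41). The median therefore does not describe GA perception genes alone. Of the GA receptor genes, GID1A had means of 9.14 ± 0.10 in aba2/GA20OX1-OE and 9.43 ± 0.15 in aba2/ga20ox1. GID1B had 6.14 ± 0.32 in aba2/GA20OX1-OE and 6.96 ± 0.62 in aba2/ga20ox1, with a difference of -0.82 (adjusted p = 0.29), and that of GID1C was -0.01. SPY, which encodes an enzyme that sugar-modifies DELLA proteins, had 9.12 ± 0.17 in aba2/GA20OX1-OE and 8.66 ± 0.18 in aba2/ga20ox1 (0.46, SE 0.19, adjusted p = 0.16). Genes of GA synthesis and the GASA family, a group of GA-regulated peptide genes, were not named by the annotation and are not analysed here.

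None of 6 tested cold, drought and ABA induced genes was called by limma (median 0.41; 1 higher and 0 lower at an unadjusted p under 0.05), and 1 was called higher after quantile normalization. The difference of COR47, a dehydrin gene, was 0.64 (SE 0.19, adjusted p = 0.062). COR15A, a cold-induced chloroplast protein gene, had 10.21 ± 1.03 in aba2/GA20OX1-OE and 9.63 ± 0.36 in aba2/ga20ox1 (adjusted p = 0.32). UGT71C5, which encodes a glucosyltransferase that inactivates ABA by conjugation, was 1.66-fold lower, at 9.13, 9.0 and 9.25 in aba2/GA20OX1-OE and 9.83, 9.72 and 10.03 in aba2/ga20ox1 (adjusted p = 0.021). Without aba2/GA20OX1-OE replicates 1 or 2 or aba2/ga20ox1 replicates 1 or 3 it was not called (-0.65 to -0.75, adjusted p of 0.054 to 0.11).

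XERICO, a RING finger gene that raises ABA levels when overexpressed, was named after its values were seen. It had 10.19, 9.34 and 9.74 in aba2/GA20OX1-OE and 10.27, 10.43 and 10.63 in aba2/ga20ox1 (-0.69, SE 0.19, adjusted p = 0.045). The call ended without any 1 array except aba2/GA20OX1-OE replicate 1 (-0.48 to -0.77, adjusted p of 0.062 to 0.19) and after quantile normalization (-0.69, adjusted p = 0.054).

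Among sugar transport genes, SWEET1, a plasma membrane glucose transporter gene, had 9.29, 9.06 and 9.34 in aba2/GA20OX1-OE and 10.31, 10.64 and 10.22 in aba2/ga20ox1. It was 2.23-fold lower (-1.16, SE 0.16, adjusted p = 0.00018). The level in aba2, 10.24, was near that of aba2/ga20ox1, and the difference between aba2/GA20OX1-OE and aba2 was called by itself (-1.01, adjusted p = 0.0019). No other of 14 tested sugar transporter genes was called. SWEET8 (1.35, adjusted p = 0.085) and SWEET10 (1.14, adjusted p = 0.12) had means above those of aba2/ga20ox1, and TMT1, a vacuolar sugar transporter gene, a mean below (-0.46, adjusted p = 0.053).

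Of 4 tested nitrate, sulfate and phosphate genes 1 was called, lower, and the other 3 had differences above 0 (median 0.16, or -0.03 after quantile normalization). APS4, an ATP sulfurylase gene of sulfate assimilation, was 1.82-fold lower, at 9.67, 9.74 and 9.74 in aba2/GA20OX1-OE and 10.42, 10.38 and 10.92 in aba2/ga20ox1 (adjusted p = 0.012). It was not called without aba2/ga20ox1 replicate 3 (-0.69, adjusted p = 0.097). Of 10 tested autophagy genes 2 were called, both lower (median -0.24; 0 higher and 4 lower at an unadjusted p under 0.05). ATG8D (-0.59, SE 0.14, adjusted p = 0.015) and APG8H (-0.52, SE 0.14, adjusted p = 0.042) belong to the ATG8 family, whose proteins coat the autophagosome membrane. Both calls ended without aba2/GA20OX1-OE replicates 1 or 3 or aba2/ga20ox1 replicate 3 (-0.44 to -0.56, adjusted p of 0.062 to 0.2). ATG8D was also not called without aba2/ga20ox1 replicate 1 (-0.59, adjusted p = 0.052), nor APG8H without aba2/GA20OX1-OE replicate 2 (-0.57) or aba2/ga20ox1 replicate 2 (-0.51). CCS, the copper chaperone gene of superoxide dismutase, was chosen after its values were seen and was 1.88-fold lower (-0.91, SE 0.18, adjusted p = 0.0065).

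UGT76C2, whose enzyme inactivates cytokinins by adding glucose, was 1.68-fold lower, at 7.85, 7.83 and 7.46 in aba2/GA20OX1-OE and 8.58, 8.49 and 8.31 in aba2/ga20ox1 (adjusted p = 0.014). It was not called without aba2/GA20OX1-OE replicate 3 (-0.62) or aba2/ga20ox1 replicate 1 (-0.69). Of 26 tested UDP-glycosyltransferase genes it and UGT71C5 were the only calls (median -0.02; 1 higher and 5 lower at an unadjusted p under 0.05). After quantile normalization 4 of the 26 were called lower (median -0.14), and without aba2/GA20OX1-OE replicate 3 the count was 1. TCP15, a transcription factor gene of cell proliferation and growth, was 1.83-fold higher, at 9.91, 10.15 and 9.76 in aba2/GA20OX1-OE and 8.79, 9.04 and 9.38 in aba2/ga20ox1 (adjusted p = 0.012). It was not called without aba2/GA20OX1-OE replicate 2 (0.77) or aba2/ga20ox1 replicate 1 (0.74). TCP15 was the only call among 4 tested genes of growth regulation and leaf size (median 0.05, or -0.16 after quantile normalization). The others, SPT, CYP78A9 and ARL, had differences of -0.02, 0.13 and -0.05.

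BCAT4 encodes the enzyme at the entry to methionine-derived glucosinolates and was called higher (0.62, SE 0.17, adjusted p = 0.041), with overlap between the groups at 12.23, 12.82 and 12.44 in aba2/GA20OX1-OE and 11.61, 11.75 and 12.26 in aba2/ga20ox1. All 5 tested glucosinolate genes had a difference above 0 and an unadjusted p under 0.05 (median 0.62, or 0.44 after quantile normalization). Of all 15922 tested probe sets, 61.4% had a difference above 0 and 3351 an unadjusted p under 0.05 in either direction. The call of BCAT4 ended without aba2/GA20OX1-OE replicates 2 or 3 or aba2/ga20ox1 replicates 1 or 2 (0.46 to 0.64). The jasmonate and wounding list held 10 tested genes with 1 rise and 2 falls, and with 2 rises and 0 falls without aba2/GA20OX1-OE replicate 3. Beside PDF1.2b these were the jacalin lectin genes JAL23 (1.56, SE 0.40, adjusted p = 0.029) and JAL34 (-0.83, SE 0.22, adjusted p = 0.035). JAL23 was not called without aba2/GA20OX1-OE replicate 2 (1.03) or aba2/ga20ox1 replicates 1 or 2 (1.48 and 1.23) or after quantile normalization (1.23), and JAL34 not without any 1 array except aba2/ga20ox1 replicate 1 (-0.63 to -0.90).

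Photosynthesis genes gave no calls in limma. The 13 tested nuclear genes had a median of -0.20 (1 higher and 0 lower at an unadjusted p under 0.05), which quantile normalization brought to 0.00, and the 44 tested chloroplast-encoded photosynthesis genes a median of -0.32 (0 higher and 5 lower unadjusted). After quantile normalization 1 of the 44 was called lower. In all, 17 of the 41 lists with a tested member held at least 1 call and 24 held none. A fit of only the groups compared ended the calls of AT2G20250, 260869_at, XTH16, GH9B5, CSLA01, TBL37, TBL39, JAL23, JAL34, BCAT4, UGT76C2, ATG8D, APG8H, XERICO and AT1G30260, with adjusted p of 0.056 to 0.18.

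Beside the full range, each of its ends was set against aba2. For aba2/GA20OX1-OE against aba2, 121 probe sets were called (0.760%), 100 higher (0.628%) and 21 lower (0.132%). For aba2/ga20ox1 against aba2 limma called 1 (0.00628%), 254065_at, which was lower (-4.90, adjusted p = 0.0016). At an unadjusted p under 0.05 the counts were 1587 and 1033. The count of 121 was 43 and 84 without aba2/GA20OX1-OE replicates 2 and 3 and 53, 74 and 56 without aba2 replicates 1, 2 and 3, and that of 1 was 4 and 2 without aba2/ga20ox1 replicates 2 and 3. Whether both ends differ in size was not tested, and the 3 comparisons share arrays. Among the 435 rises the median difference from aba2 was 0.69 in aba2/GA20OX1-OE and -0.35 in aba2/ga20ox1. For all tested probe sets with a difference above 0 it was 0.15 and -0.16. Among the 188 falls it was -0.46 in aba2/GA20OX1-OE and 0.31 in aba2/ga20ox1, against -0.13 and 0.10 for all tested with a difference below 0. The probe sets were chosen by the difference between both ends, which by itself favours opposite signs.

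The named genes differed in where aba2 lay. Of the 12 largest rises 8 were also called between aba2/GA20OX1-OE and aba2, and of the 12 largest falls 3 were. None of the 24 was called between aba2/ga20ox1 and aba2. AT1G72230 had means of 10.74 in aba2/GA20OX1-OE, 8.21 in aba2/ga20ox1 and 8.29 in aba2, so that the low genotype and aba2 were nearly level. AT3G44970 had 6.02 in aba2/GA20OX1-OE, 8.34 in aba2/ga20ox1 and 7.32 in aba2, which lay about midway. WSD1 had 8.80 in aba2/GA20OX1-OE, 5.83 in aba2/ga20ox1 and 6.53 in aba2.

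To see whether the same contrast holds with ABA2 intact, GA20OX1-OE was compared with ga20ox1 on 6 other arrays. There 21 probe sets passed (0.132%), of which 11 were higher (0.0691%) and 10 lower (0.0628%) in GA20OX1-OE, and 1571 had an unadjusted p under 0.05. With the replicate number as a block, 44 passed, 23 higher and 21 lower. With array quality weights 2394 passed, against 1153 within aba2, so which ABA2 state has more calls depends on that setting. A fit of only the groups compared gave 4 with ABA2 intact and 363 within aba2. The count of 21 was 4 and 36 without GA20OX1-OE replicates 1 and 2, and 13, 8 and 47 without ga20ox1 replicates 1, 2 and 3. The 435 probe sets that rose within aba2 had the same sign there in 388 cases (89.2%, against 73.9% of all tested probe sets with a difference above 0 within aba2), with a median of 0.35. The 188 that fell had the same sign in 167 (88.8%, against 65.5%), with a median of -0.29. After quantile normalization the shares were 82.1% (against 67.0%) and 88.3% (against 66.7%). Of the called probe sets 8 of the 435 and 9 of the 188 were also called with ABA2 intact, 10 and 14 with the block and 147 and 83 with array quality weights. The 623 were chosen by their difference within aba2, so sizes are not comparable between both states.

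AT3G44970 was among these, with means of 5.31 in GA20OX1-OE and 7.12 in ga20ox1 (-1.81, adjusted p = 0.0044). With the block AT1G52770 (-1.24, adjusted p = 0.0056) and AT4G11290 (-1.04, adjusted p = 0.019) were called there too. The genes AT5G22460, AT4G23680, scpl35 and AT1G30260 were chosen after their values were seen, because they were called in both backgrounds. AT5G22460 had 8.88, 9.15 and 9.18 in aba2/GA20OX1-OE and 7.55, 7.09 and 6.80 in aba2/ga20ox1, a 3.78-fold rise (adjusted p = 3e-05), and its difference with ABA2 intact was 1.41 (adjusted p = 0.0081). AT4G23680 rose 4.06-fold within aba2 (2.02, SE 0.41), and its difference with ABA2 intact was 2.92 (SE 0.41). In that gene the genotypes also differed in level, with means of 9.19 in aba2/GA20OX1-OE and 7.17 in aba2/ga20ox1 and of 6.53 in GA20OX1-OE and 3.61 in ga20ox1. The serine carboxypeptidase-like gene scpl35 fell in both (-0.70 within aba2, -0.90 with ABA2 intact), as did AT1G30260 (-0.67 and -0.90). Within aba2, scpl35 was not called without aba2/GA20OX1-OE replicate 1 or aba2/ga20ox1 replicate 3 (-0.58 and -0.64), nor AT1G30260 without these or aba2/GA20OX1-OE replicate 3 (-0.51, -0.56 and -0.67).

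**Figure D4:**
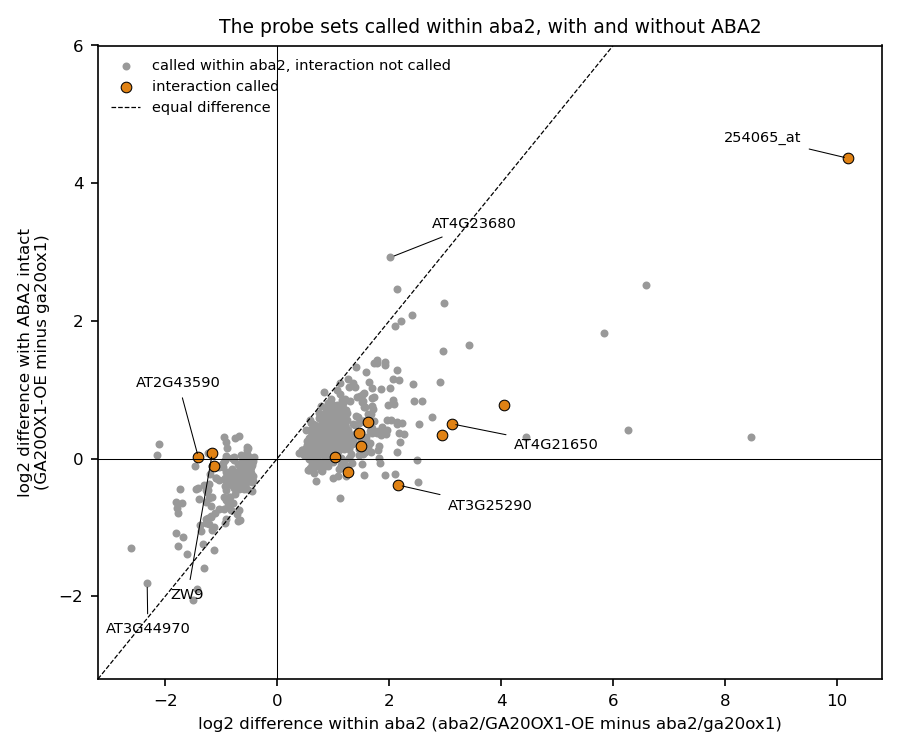
Each point is 1 of the 623 probe sets called within aba2, with its log2 difference between aba2/GA20OX1-OE and aba2/ga20ox1 on the x axis and between GA20OX1-OE and ga20ox1 on the y axis. The points were chosen by their x axis difference, so distances from the line of equal difference are not comparable. Most have the same sign on both axes, and the 13 with a called interaction are orange.

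The difference between both contrasts was tested as an interaction in the same fit. The level of GA20OX1 could not be checked by name, so an equal GA20OX1 range in both ABA2 states is not established. The probe set 254065_at, whose means followed the GA20OX1 genotype, had 11.96 in aba2/GA20OX1-OE and 8.74 in GA20OX1-OE. An unequal range and a dependence on ABA2 state cannot be told apart here. Limma called 13 probe sets (0.0816%), 10 above 0 (0.0628%) and 3 below (0.0188%), and 841 had an unadjusted p under 0.05. The count was 0 in a fit of only the 12 arrays compared, where 766 had an unadjusted p under 0.05 and the 13 had adjusted p of 0.055 to 0.23. It was 6 without the intensity trend, 21 with the replicate block and 82 with array quality weights. All 13 were called within aba2, 1 also with ABA2 intact. AT4G21650 differed by 3.12 within aba2 and by 0.51 with ABA2 intact, where its means were 8.19 in GA20OX1-OE and 7.68 in ga20ox1 (interaction 2.61, SE 0.44, adjusted p = 0.022). AT3G25290 had means of 8.99 in aba2/GA20OX1-OE and between 6.51 and 7.32 in the other genotypes (interaction 2.55, adjusted p = 0.019). AT1G03820 had 9.93 in aba2/GA20OX1-OE and 8.43 in aba2/ga20ox1, and 8.47 in GA20OX1-OE and 8.29 in ga20ox1 (interaction 1.32, adjusted p = 0.049).

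Both named genes with a negative interaction were lower in aba2/GA20OX1-OE than in every other genotype or level with the lowest. ZW9 had 7.66, 6.87 and 7.37 in aba2/GA20OX1-OE and 8.24, 8.61 and 8.52 in aba2/ga20ox1, 2.23-fold lower (adjusted p = 0.00018), whereas its means in the genotypes with ABA2 intact lay between 10.88 and 11.04 (interaction -1.24, adjusted p = 0.035). AT2G43590 had 9.35, 8.61 and 9.24 in aba2/GA20OX1-OE and 10.25, 10.66 and 10.51 in aba2/ga20ox1, and means of 9.21 in GA20OX1-OE and 9.20 in ga20ox1 (interaction -1.42, adjusted p = 0.025). The count of 13 was 7 without aba2/GA20OX1-OE replicate 3 or aba2/ga20ox1 replicate 1, 8 without aba2/GA20OX1-OE replicate 2 or aba2/ga20ox1 replicate 3, 3 without GA20OX1-OE replicate 3 and 4 without ga20ox1 replicate 3. It was 5 without GA20OX1-OE replicate 2, 6 without ga20ox1 replicate 2 and 20 without GA20OX1-OE replicate 1.

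**Figure D5:**
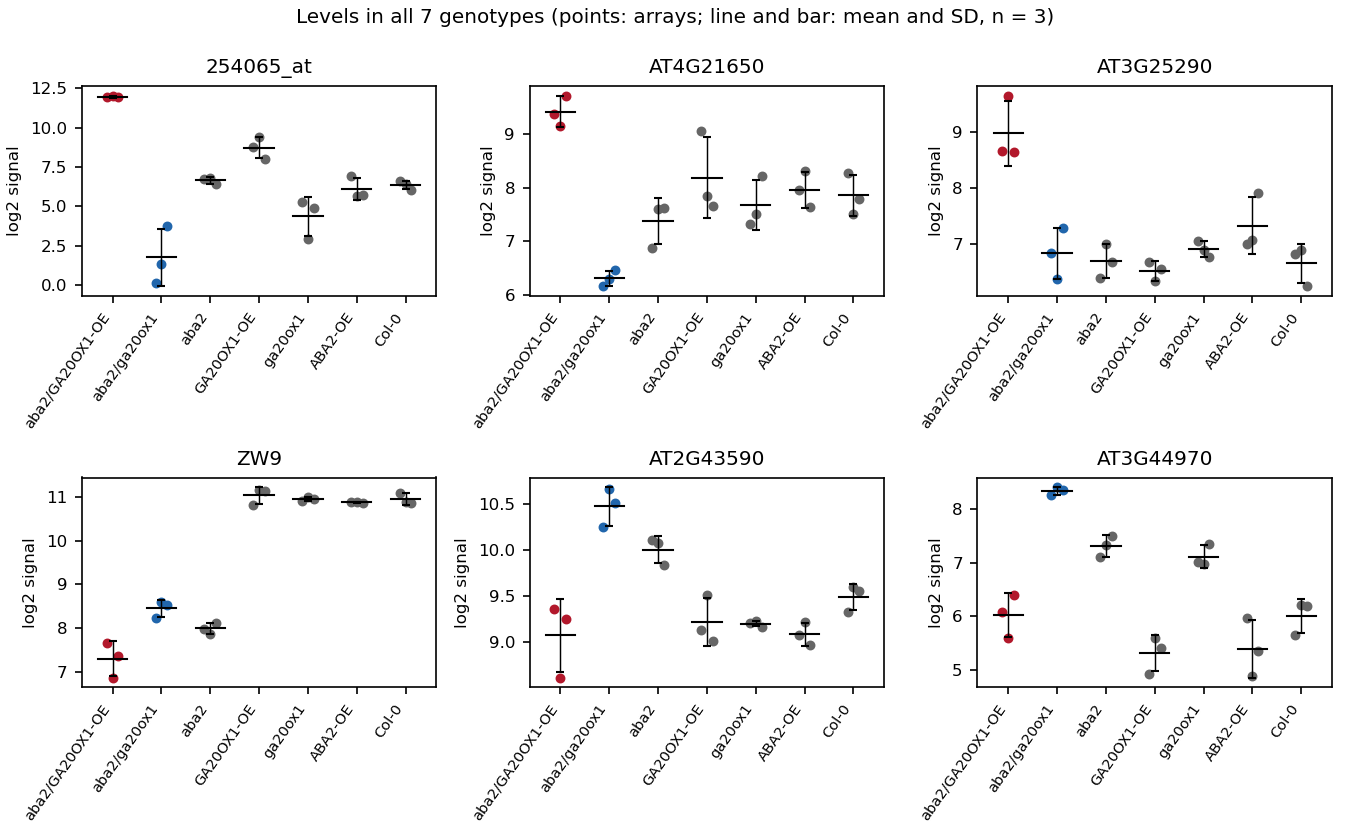
Log2 signal in all 7 genotypes for 254065_at, AT4G21650, AT3G25290, ZW9, AT2G43590 and AT3G44970, with 1 point an array and the mean and SD of 3 arrays as line and bar. AT3G25290 is high in aba2/GA20OX1-OE alone, ZW9 is low in all 3 genotypes with aba2, and AT3G44970 is lower with high than with low GA20OX1 in both ABA2 states.

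The levels were also read against Col-0. Among the 435 rises the aba2/GA20OX1-OE mean was the closer of both groups to the Col-0 mean in 44.8%, against 42.0% of all tested probe sets with a difference above 0. Among the 188 falls the share was 55.9%, against 55.2%. Both shares are near those of all tested probe sets.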

How the data were processed

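Single-channel Affymetrix arrays of 7 genotypes, 3 arrays each, were used. The deposited values are linear intensity signals, which the authors made with MAS5 per the submitters' processing notes. The sources used here name no version, detection calls or scaling target. The mean of an array, trimmed by 2% at each end, was 500.05 to 500.06 throughout, and no columns held identical values.

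The 64 control probe sets of 22810 were left out, and values were logged to base 2 without a second normalization. Of the other 22746 probe sets, the dimmest 30% by mean over all arrays were dropped (bound 5.257 on the log2 scale, a signal of 38.24), leaving 15922. The annotation supplied with the series assigned 13436 probe sets to 1 gene, and 503 had several genes or no symbol. For 77 the gene had no match among the RefSeq genes of TAIR10.1, from which symbols were taken, and 8730 were not listed.

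The test was limma (version 3.58.1, R 4.3.3) with lmFit and with eBayes on an intensity trend, fitted once to all 21 arrays with a mean for each of the 7 genotypes. P-values are two-sided with Benjamini-Hochberg adjustment over the 15922 probe sets of a comparison, and called means an adjusted p under 0.05. All adjusted p-values come from limma. The fit has no term for the replicate number. Deviations of same-numbered GA20OX1-OE and ga20ox1 arrays correlated at 0.131, 0.135 and 0.229, all above 0.1, so values with the replicate number as a block are given beside that comparison. The pairing rests on these correlations, not on the labels.

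Named are the 12 largest rises and 12 largest falls among called probe sets with 1 gene and no overlap between arrays, up to 3 called genes a direction in each list described, called interactions with 1 gene, and up to 2 unnamed probe sets a direction. A gene with several probe sets is represented by the one with the highest mean. For other genes the text says that their values were known when they were picked. The members and gene lists were chosen with earlier results of these data known. A description of promoter motifs was planned and not run, because no sequence table was used here.

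The test script was checked on simulated data. Other settings tried were array quality weights, no trend in eBayes, a block on replicate number, no low-signal filter, a filter on the lowest 50%, a pseudocount of 20.1 (the 20th percentile), quantile normalization, a fit of only the groups compared, and leaving out each array. Counts were tabulated in Python 3.11.15 (numpy 2.4.6, pandas 2.3.3), and matplotlib 3.10.9 drew the figures.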

Additional observations from a re-analysis of the deposited data

Results flagged for a closer look

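The 13 probe sets below were singled out because their difference between high and low GA20OX1 was not the same in aba2 plants as in plants with ABA2, by limma's interaction test at an adjusted p under 0.05. For each, the interaction is (aba2/GA20OX1-OE minus aba2/ga20ox1) minus (GA20OX1-OE minus ga20ox1) on the log2 scale. Whether the GA20OX1 range was equal in both ABA2 states could not be checked by name. A dependence on ABA2 state and an unequal range therefore cannot be told apart.

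Among named genes it was 2.61 for AT4G21650, 2.55 for AT3G25290, 1.32 for AT1G03820, -1.42 for AT2G43590 and -1.24 for ZW9. Of the 8 probe sets that the annotation does not name, 254065_at had 5.84, with a difference of 10.20 within aba2 and 4.36 with ABA2 intact. Its means in aba2/ga20ox1 (1.76) and ga20ox1 (4.38) lay under the low-signal bound, so the size of the interaction is poorly measured, and with the pseudocount it was 3.94. The values were 3.26 for 249596_s_at and 2.59 for 247638_at. Those of 263913_at, 247884_at, 258218_at and 263120_at were 1.47, 1.10, 1.09 and 1.02, and 264809_at had -1.03. None of the 13 was called in a fit of only the 12 arrays compared (adjusted p of 0.055 to 0.23). With ABA2 intact, 254065_at alone was called.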

How the results depend on the processing

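The count of 623 calls between aba2/GA20OX1-OE and aba2/ga20ox1 was 1153 with array quality weights, 979 with the replicate number as a block (660 higher, 319 lower) and 363 in a fit of only the groups compared. It was 489 to 679 under the other settings that keep all arrays and 309 to 502 without each array in turn. The block kept all 623 calls, quantile normalization 438 and the fit without aba2/ga20ox1 replicate 3 283. The labels do not say what a shared replicate number stands for. Deviations of same-numbered aba2/GA20OX1-OE and aba2/ga20ox1 arrays correlated at 0.0587, -0.247 and -0.223, and 1 of 3 aba2/GA20OX1-OE arrays correlated best with the aba2/ga20ox1 array of its own number.

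For aba2/GA20OX1-OE against aba2 the count of 121 was 387 with array quality weights and 63 with only the groups compared, and 43 to 157 without each array. For aba2/ga20ox1 against aba2 the count of 1 was 6 with array quality weights, 3 with the replicate block, 0 with the lowest 50% left out, where its probe set was not tested, and 1 to 4 without each array. For GA20OX1-OE against ga20ox1 the count of 21 was 9 without the trend, 2394 with array quality weights, 44 with the replicate block, 12 with the lowest 50% left out, 4 with only the groups compared, and 4 to 47 without each array. The 13 interactions were 6 without the trend, 82 with array quality weights, 21 with the replicate block, 0 with only the groups compared, and 3 to 20 without each array. The causes were not tested.

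Of 789 values of the 58 named probe sets under the alternatives, 646 kept their call, 143 lost it and 0 reversed, and 26 probe sets kept their call under every alternative. Of 12 with a mean under the bound, 11 were also called with the pseudocount and 260869_at was not (-0.90, adjusted p = 0.076). At 260869_at the difference was -2.14.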
